A study of Mus musculus with 12 samples.

Results

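The motile cilia genes were a list of 35 mouse genes named as ciliated cell regulators or as axoneme, dynein and radial spoke genes, followed here over 12 lung arrays. The list was drawn up with earlier results of these data known, so its shares beside those of all genes are a description. Its genes were found by symbol through the annotation of the array's probe sets, and 34 of the 35 had a probe set with a single gene symbol. Lrriq1 had none. Of those 34, 32 passed the filter on low values, out of 10996 measured genes in all, and Meig1 and Ropn1l did not pass it. Meig1 lay above the array median on 1 array and had a wild type SB mean of 4.28 ± 0.22 (SD, n = 3), and Ropn1l, a radial spoke protein, lay above it on 1 array with a mean of 3.96 ± 0.55.

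RNA came from whole lungs of mice aged 8 to 12 weeks, 1 biotin-labelled Affymetrix array per mouse, with 3 mice in each of 4 groups. Wild type mice and knockout mice, written GADD45-/- in the titles and named as Gadd45a in the series title, were each studied under SB and after VILI, which is ventilator-induced lung injury. VILI was given at a tidal volume of 30 ml/kg and 65 breaths per minute for 4 hours, and the labels leave SB unexplained, the design text calling that wild type group the control. Gadd45a encodes a small stress-inducible nuclear protein, and the labels do not say in which cells the gene was lost. Values are log2 expression values normalized by the authors, on which a difference of 1 is a factor of 2, and each array had a median of 4.36 to 4.58. Gadd45a lay between 8.62 and 10.33 on the wild type arrays and between 4.58 and 6.15 on the knockout arrays, without overlap. Arrays of one group correlated at 0.963 to 0.995. Knockout replicates 3 of both treatments stood apart from the others on the second principal component and had B cell marker means of 9.47 and 9.98, against 5.50 to 7.20 on the other 10 arrays, so results that rest on them are given with and without them. With 3 arrays a group, the number of arrays limits the precision.

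Motile cilia are the beating hairs of ciliated airway epithelial cells and clear mucus from the airways. Their core, the axoneme, is a ring of doublet microtubules around a central pair: dynein arms drive the bending, radial spokes pass signals from the central pair, and ruler proteins set the spacing of these parts. Foxj1, a forkhead transcription factor, switches on the genes of motile cilia together with RFX factors such as Rfx2 and Rfx3, which bind the X-box of cilia promoters. In bulk lung RNA, fewer ciliated cells and less of a transcript per ciliated cell cannot be told apart.

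Promoter windows from RefSeq (GRCm38.p6) were at hand for 30 of the 35 listed genes, each running from 250 bases before to 50 bases after a gene's start. The forkhead core TGTTTA, read on both strands, was found for 10 of the 30 (33.3%), against 15.1% of the 27025 genes with a window. The RFX half-site GTTGCC, also read on both strands, was found for 17 of the 30 (56.7%), against 14.1% of all genes. The letters of these motifs do not overlap one another, and a match is a description of the sequence, not a site shown to be bound. Foxj1, Rsph1, Rsph4a, Tppp3 and Stk33 were those without a window. The windows below belong to the 2 RFX regulators and to 3 members that were lower after VILI and hold an RFX half-site before the start. They are shown to let the spacing of the letters be read: each is the 250 bases before the gene's start, 5′ to 3′ on the gene's strand, with forkhead cores and RFX half-sites in capitals.
Rfx2, chr17:56831009-56831258, minus strand: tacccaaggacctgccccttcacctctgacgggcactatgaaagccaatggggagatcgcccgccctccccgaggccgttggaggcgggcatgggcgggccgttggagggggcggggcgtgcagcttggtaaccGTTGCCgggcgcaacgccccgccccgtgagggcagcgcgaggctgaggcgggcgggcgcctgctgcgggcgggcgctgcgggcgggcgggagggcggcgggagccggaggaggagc
Rfx3, chr19:28011167-28011416, minus strand: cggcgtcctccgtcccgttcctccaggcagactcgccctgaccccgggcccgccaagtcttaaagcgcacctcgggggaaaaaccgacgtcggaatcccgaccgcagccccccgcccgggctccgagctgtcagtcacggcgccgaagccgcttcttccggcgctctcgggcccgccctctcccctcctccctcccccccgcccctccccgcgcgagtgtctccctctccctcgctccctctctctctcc
Ccdc113, chr8:95533850-95534099, plus strand: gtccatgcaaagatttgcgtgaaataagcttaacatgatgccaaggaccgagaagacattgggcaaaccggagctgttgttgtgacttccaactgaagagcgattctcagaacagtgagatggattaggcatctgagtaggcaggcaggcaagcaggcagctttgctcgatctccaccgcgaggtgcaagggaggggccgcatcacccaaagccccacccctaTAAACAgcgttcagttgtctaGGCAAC
Dynlrb2, chr8:116504765-116505014, plus strand: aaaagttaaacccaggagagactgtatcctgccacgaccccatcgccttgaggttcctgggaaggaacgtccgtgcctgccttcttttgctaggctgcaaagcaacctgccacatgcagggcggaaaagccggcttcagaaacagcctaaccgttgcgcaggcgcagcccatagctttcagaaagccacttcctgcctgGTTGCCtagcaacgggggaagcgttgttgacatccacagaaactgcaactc
Enkur, chr2:21205366-21205615, minus strand: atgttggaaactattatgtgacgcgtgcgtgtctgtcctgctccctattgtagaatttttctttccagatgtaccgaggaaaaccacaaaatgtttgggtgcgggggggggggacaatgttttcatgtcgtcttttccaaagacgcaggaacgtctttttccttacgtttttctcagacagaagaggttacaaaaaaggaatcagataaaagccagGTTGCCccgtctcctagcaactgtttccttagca
In Ccdc113 the half-site ended at the base next to the start and the forkhead core lay with its first base 27 bases before it. The half-site of Dynlrb2 began 51 bases before the start, that of Enkur 34 and that of Rfx2 116. Rfx3 had neither motif before its start, and its half-site and that of Tekt4 lay in the bases after the start, which are not printed. Hydin, Pifo, Ropn1l, Lrriq1, Cdhr3, Tekt1, Tekt2 and 1110017D15Rik also held a half-site that began no more than 35 bases before a start.

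The first question was how these genes stood in wild type lungs after VILI. Wild type SB lungs had the highest group mean of all 4 groups for each of the 32 measured genes, and after VILI in wild type each of the 32 had a lower mean than under SB. Foxj1, the master regulator, Tekt4, a tektin of the flagellar and ciliary microtubules, Akap14, an anchoring protein of axonemal protein kinase A, and Dynlrb2, a dynein light chain, passed the test and fell. The other 28 did not pass it. The median change was -0.57, against -0.054 over all 10996 genes. Limma's test, with Benjamini-Hochberg adjustment over all genes and a threshold of 0.05, called 4 of 32 genes lower (12.5%) and 0 higher, against 1.28% of all genes called lower and 2.64% called in either direction. Unadjusted p was under 0.05 for 20 of the 32, against 21.2% of all genes.

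Calls and medians over the 32 need a reservation. Tekt4 passed the filter only through SB arrays, since it lay above the array median on 5 arrays, all of them SB, and such a gene has to differ. Akap14 lay above it on 8 arrays: 3 wild type SB, 3 knockout SB, 2 wild type VILI and 0 knockout VILI. Its VILI arrays alone would not have met the filter of 3 arrays, so its lower values after VILI were partly built in. Stk33 and Mns1 lay above the median on 9 and 11 arrays. Of the 28 genes above the median on all 12 arrays, 2 were called in wild type, Dynlrb2 and Foxj1, and 28 had a lower mean after VILI.

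**Figure D1:**
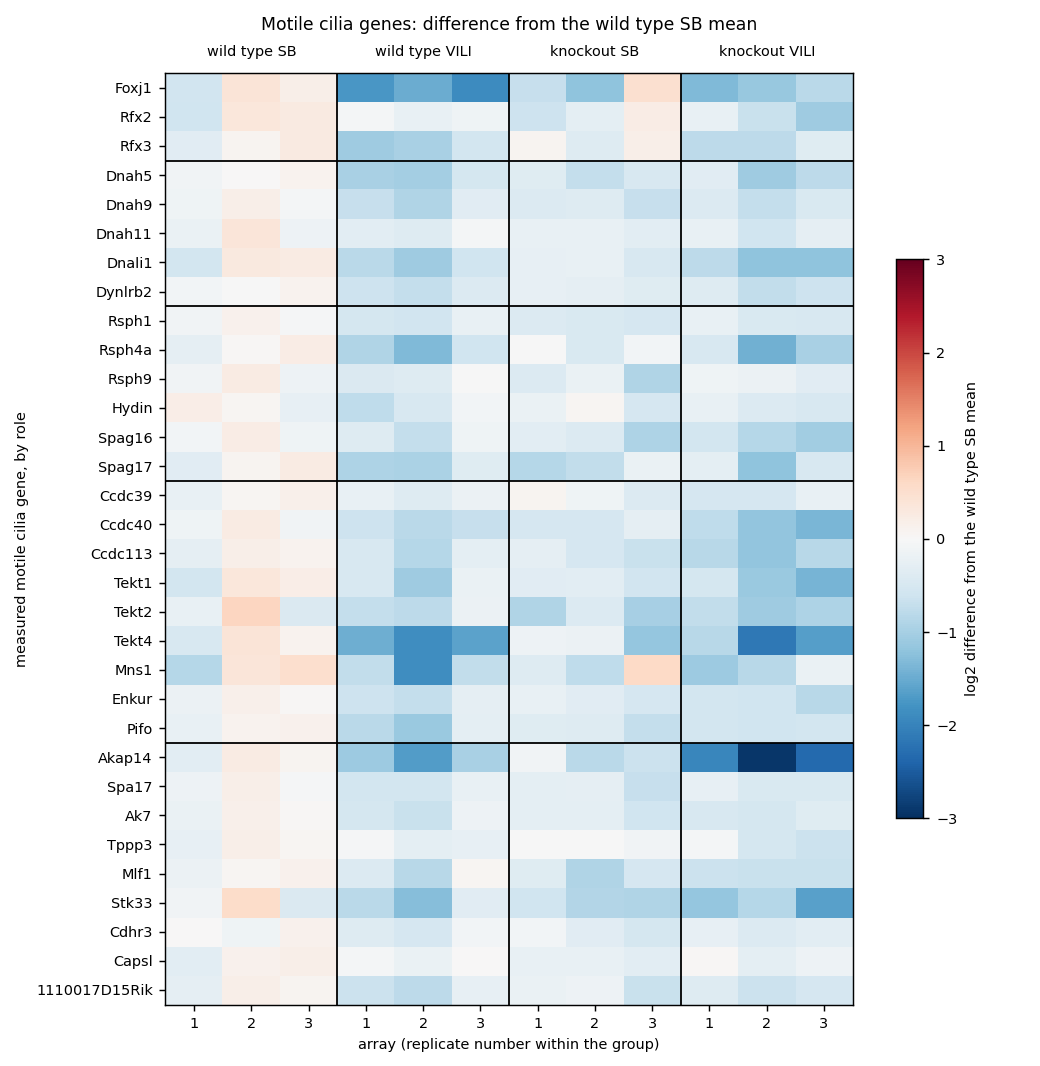
Difference of each of the 32 measured motile cilia genes (rows, grouped by role) from its wild type SB mean on each of the 12 arrays (columns), in log2 units. Blue, for lower values, fills most of the 3 other groups, and wild type SB replicate 2, the highest of its group for 20 genes, is the reddest column.

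The regulators differed among themselves. Foxj1 stood at 7.50, 8.45 and 8.23 in wild type SB lungs and at 6.31, 6.58 and 6.18 after VILI, every VILI array being below every SB array. Its change was -1.70 (SE 0.37, n = 3 and 3, limma adjusted p = 0.0424), which left 30.8% of the SB level. In the knockout it stood at 7.38, 6.86 and 8.55 under SB and at 6.74, 6.92 and 7.26 after VILI. These groups overlapped, and the change was -0.62 (SE 0.37, adjusted p = 0.355). The 8.55 of knockout SB replicate 3 was the highest Foxj1 value of all 12 arrays, and without that array the change in the knockout was -0.15. That array also held the highest Mns1 value, 6.62, and one of the 2 high B cell marker means, whose part in the Foxj1 value was not tested.

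Rfx3 stood at 7.41, 7.83 and 8.01 under SB and at 6.68, 6.78 and 7.19 after VILI in wild type, a change of -0.86 (SE 0.22, adjusted p = 0.0626). Knockout values were 7.84, 7.36 and 7.93 and then 6.96, 6.97 and 7.39, a change of -0.60 (SE 0.22, adjusted p = 0.137). The wild type arrays did not overlap, while the highest knockout VILI array lay just above the lowest knockout SB array. Rfx2 stood at 5.33, 6.26 and 6.19 under SB and at 5.86, 5.71 and 5.79 after VILI in wild type, and the groups overlapped. Its knockout values were 5.30, 5.62 and 6.16 under SB and 5.69, 5.27 and 4.86 after VILI, again with overlap. The changes of Rfx2 were -0.14 in wild type (SE 0.30, 95% confidence interval -0.79 to 0.52) and -0.42 in the knockout (SE 0.30, interval -1.08 to 0.23). The sign of the first turned to 0.032 without wild type SB replicate 2, and that of the second to 0.017 without both knockout replicates 3, so no direction is given for Rfx2. Other probe sets of Rfx2 and Rfx3 lay below the array median on all 12 arrays and carry no level.

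The 5 dynein genes ran from motor heavy chains to light chains. Dynlrb2 was among the brightest of the list, at 10.98, 11.06 and 11.17 under SB and at 10.46, 10.36 and 10.66 after VILI in wild type. The 2 groups were well apart for the size of their spread, and the change was -0.57 (SE 0.11, adjusted p = 0.0290), the lowest adjusted p of the list in wild type. Its knockout values were 10.83, 10.81 and 10.71 and then 10.68, 10.34 and 10.45, without overlap, a change of -0.29 (SE 0.11, adjusted p = 0.156).

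Dnah5, a heavy chain of the outer dynein arm, stood at 7.11, 7.24 and 7.33 under SB and at 6.25, 6.21 and 6.69 after VILI in wild type. All VILI values lay under all SB values, and the change of -0.84 (SE 0.20, adjusted p = 0.0513) just missed the threshold. In the knockout it stood at 6.86, 6.51 and 6.75 and then at 6.88, 6.16 and 6.45, a change of -0.21 (SE 0.20, adjusted p = 0.582). The knockout SB arrays already lay below the wild type SB arrays, and they overlapped with the knockout VILI arrays. Dnali1, a light intermediate chain of the inner arm, stood at 7.46, 8.31 and 8.26 under SB and at 7.20, 6.94 and 7.42 after VILI in wild type. In the knockout it stood at 7.76, 7.79 and 7.52 and then at 7.22, 6.81 and 6.82. Neither pair overlapped, and the changes were -0.83 (SE 0.23, adjusted p = 0.0792) and -0.75 (SE 0.23, adjusted p = 0.0912), with an interval of -0.63 to 0.79 for the difference between them. A second Dnali1 probe set above the filter had changes of -0.54 and -0.69. The other dynein heavy chains of the list, Dnah9 and Dnah11, had changes of -0.65 and -0.26 in wild type and of -0.023 and -0.12 in the knockout, none past the threshold.

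Among 6 measured radial spoke and central pair genes, none passed in either genotype alone. Rsph4a, a radial spoke head protein, stood at 7.33, 7.62 and 7.82 under SB and at 6.69, 6.26 and 7.00 after VILI in wild type. It stood at 7.58, 7.12 and 7.51 under SB and at 7.11, 6.15 and 6.61 after VILI in the knockout. The arrays did not overlap in either genotype, and the changes were -0.94 (SE 0.26, adjusted p = 0.0810) and -0.78 (SE 0.26, adjusted p = 0.111). The other 5 were Rsph1, Rsph9, Hydin, Spag16 and Spag17, the last 3 parts of the central pair apparatus. Their changes lay between -0.74 (Spag17) and -0.27 (Rsph9) in wild type and between -0.28 (Spag16) and 0.29 (Rsph9) in the knockout.

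Of 9 ruler, tektin and inner microtubule genes, Tekt4 was called in wild type and 0 in the knockout. Tekt4 stood at 4.79, 5.66 and 5.38 under SB and at 3.81, 3.42 and 3.67 after VILI in wild type, with a wide gap between the groups. The change was -1.64 (SE 0.37, adjusted p = 0.0435). In the knockout the values were 5.12, 5.11 and 4.12 and then 4.45, 3.14 and 3.62, with overlap, and the change was -1.05 (SE 0.37, adjusted p = 0.128). Its means after VILI lay below the array medians in both genotypes, so its fold is approximate.

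Ccdc40, which forms the axonemal ruler together with Ccdc39, stood at 6.99, 7.34 and 6.99 under SB and at 6.50, 6.29 and 6.42 after VILI in wild type. The knockout arrays gave 6.60, 6.61 and 6.83 and then 6.34, 5.93 and 5.74, again without overlap. The changes were -0.70 (SE 0.18, adjusted p = 0.0601) and -0.68 (SE 0.18, adjusted p = 0.0559). Its partner Ccdc39 had a change of -0.26 in both genotypes and passed in neither, and a second Ccdc39 probe set above the filter had changes of -0.19 and -0.060. Ccdc113, a coiled-coil protein of cilia, stood at 6.52, 6.97 and 6.89 and then at 6.31, 5.94 and 6.51 in wild type, and at 6.52, 6.29 and 6.12 and then at 5.96, 5.62 and 5.97 in the knockout. The VILI values lay under the SB values in both genotypes, narrowly so in wild type, with changes of -0.54 (SE 0.20, adjusted p = 0.151) and -0.46 (SE 0.20, adjusted p = 0.197).

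Enkur, an inner microtubule protein, stood at 8.32, 8.63 and 8.51 and then at 7.86, 7.78 and 8.23 in wild type. In the knockout it stood at 8.27, 8.15 and 7.98 and then at 7.94, 7.89 and 7.66. The groups did not overlap in either genotype, and the changes were -0.53 (SE 0.15, adjusted p = 0.0871) and -0.30 (SE 0.15, adjusted p = 0.273). Mns1 had the widest spread of these genes, with an SD of 0.74 in wild type SB and 0.65 in wild type VILI, and its change of -1.12 (SE 0.46, adjusted p = 0.196) did not pass. Pifo (-0.74), Tekt1 (-0.59) and Tekt2 (-0.57) made up the rest in wild type.

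The last 9 measured genes are found in ciliated cells without being parts of the motor. Akap14 stood at 5.56, 6.11 and 5.95 under SB and at 4.78, 4.20 and 4.91 after VILI in wild type. In the knockout it stood at 5.77, 5.07 and 5.22 under SB and at 3.91, 2.96 and 3.54 after VILI. Every VILI array was below every SB array of either genotype. The changes were -1.25 (SE 0.29, adjusted p = 0.0489) in wild type and -1.89 (SE 0.29, adjusted p = 0.00974) in the knockout, to 42.1% and 27.0% of the SB level. The knockout VILI mean lay below the array medians, so that fold is approximate. The VILI arrays of Akap14 alone would not have carried it through the filter. Tppp3, a tubulin-binding protein and the brightest gene of the list at 11.54 to 12.37, had changes of -0.19 in wild type and -0.38 in the knockout. Capsl had the smallest change of the 32 in wild type, -0.091 (SE 0.15, interval -0.43 to 0.25). The other 6 were Spa17, Ak7 (an adenylate kinase), Mlf1, Stk33 (a kinase), Cdhr3 (a cadherin) and 1110017D15Rik. Their changes lay between -0.81 (Stk33) and -0.33 (Cdhr3) in wild type and between -0.43 (Stk33) and 0.027 (Spa17) in the knockout, none past the threshold. The knockout VILI mean of Stk33, 4.38, also lay below the array medians, so its change there is approximate.

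**Figure D2:**
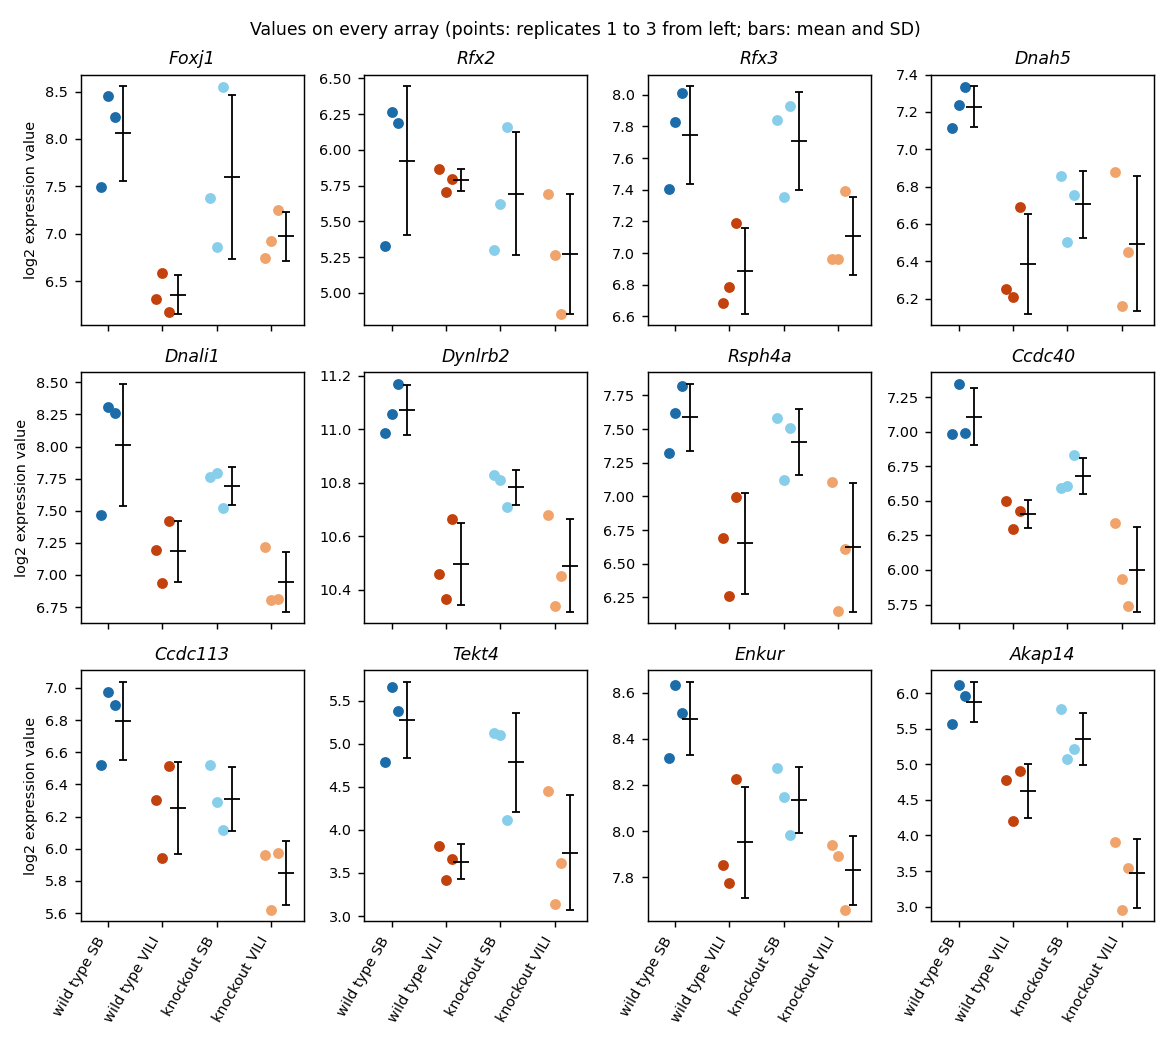
Log2 expression values on every array for the 11 genes called in a VILI comparison and for Rfx2, 12 panels in all; points are replicates 1 to 3 from the left and bars are the mean and SD of 3 arrays, on an axis that differs between panels and does not start at 0. The VILI points of Akap14 lie below the SB points in both genotypes, and the knockout SB point of Foxj1 at 8.55 is the highest of its panel.

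In knockout lungs Akap14 fell after VILI and was the 1 gene called of 32 (3.13%), against 1.7% of all genes called lower and 4.47% in either direction. Unadjusted p was under 0.05 for 9 of the 32, against 22.2% of all genes in either direction, so both counts lay near those over all genes in either direction. A share of lower values alone was not computed at unadjusted p. Of the 28 genes above the median on all arrays, 0 were called by limma, Akap14 not being one of them. In the knockout Akap14 lay above the array median on 3 SB arrays and 0 VILI arrays. Its call there is thus partly built in by the filter. After VILI 28 of the 32 had a lower mean, and the median change was -0.27, against 0.0045 over all genes. Rsph9 (0.29), Capsl (0.11), Rsph1 (0.070) and Spa17 (0.027) had a higher mean. Akap14 lost its call when only the 6 knockout arrays were fitted (limma adjusted p = 0.0664). That fit called 11 of all 10996 genes, against 491 in the main one. Without knockout VILI replicate 1 the count was 5, with Ccdc40, Rsph4a, Tekt4 and Tppp3 added, and 713 over all genes. Without wild type SB replicate 1 it was 2, with Dnali1 added, and 530 over all genes.

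**Figure D3:**
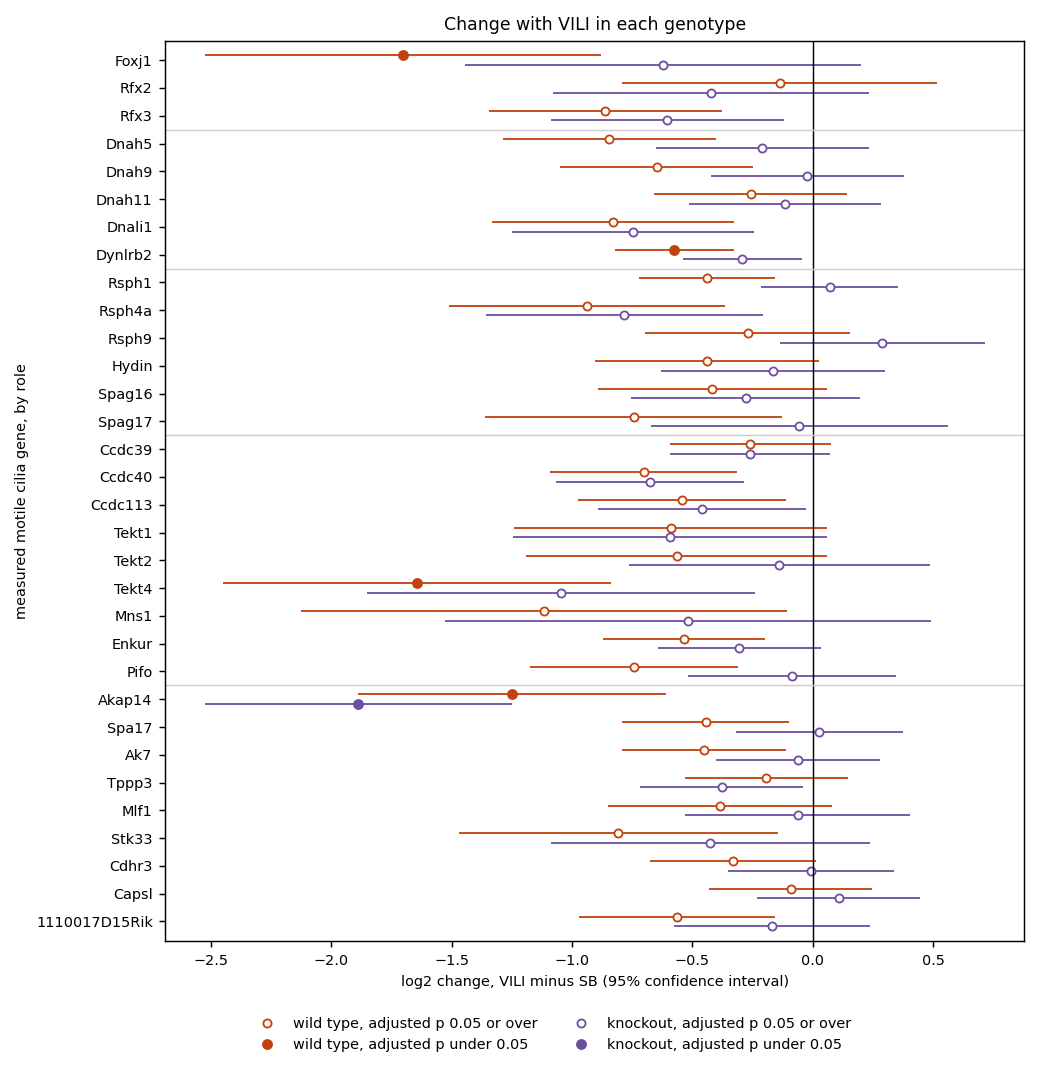
Log2 change from SB to VILI for the 32 measured motile cilia genes, in wild type (orange) and knockout (purple), with 95% confidence intervals from the fit over all 12 arrays; filled points have a limma adjusted p under 0.05. The wild type points all lie left of 0, 4 of them filled, and the knockout points lie between -1.89 and 0.29 with 1 filled.

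The wild type calls changed with the arrays used. With wild type SB replicate 2 or 3, or wild type VILI replicate 1 or 2, left out, none of the 4 remained. Limma then called 0 of 32 genes each time. Calls over all 10996 genes also fell, from 290 to 135, 31, 59 and 19 in that order. The count of the list was 2 without wild type VILI replicate 3 (74 over all genes) or without knockout VILI replicate 3 (278). It was 1, Dynlrb2, without knockout SB replicate 1 (182). The last 2 arrays enter through the shared estimate of the spread. The median change of the measured genes stayed between -0.69 and -0.45 over the 12 such fits, and at least 31 of them kept a change below 0 in each.

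Both genotypes were then averaged, 6 arrays against 6. Limma called 11 of 32 genes lower (34.4%) and 0 higher, against 9.39% of all genes called lower and 17.8% in either direction, and unadjusted p was under 0.05 for 21 of the 32, against 33.9% of all genes. The changes were -1.57 for Akap14 (SE 0.21, adjusted p = 0.00115), -1.34 for Tekt4 (SE 0.26, adjusted p = 0.00704) and -1.16 for Foxj1 (SE 0.27, adjusted p = 0.0141). Rsph4a fell by 0.86, Dnali1 by 0.79, Rfx3 by 0.73 and Ccdc40 by 0.69. Dnah5 fell by 0.53, Ccdc113 by 0.50, Dynlrb2 by 0.43 and Enkur by 0.42, and the adjusted p of these 8 lay between 0.00519 and 0.0313. By role, the called genes were 2 of 3 regulators, 3 of 5 dynein genes, 1 of 6 spoke and central pair genes, 4 of 9 rulers, tektins and inner microtubule proteins, and 1 of 9 others. The median change was -0.38, against -0.027 over all genes, and 30 of 32 changes were below 0, with Rsph9 at 0.0095 and Capsl at 0.0084. Of the 28 genes above the median on all arrays, 9 were called, Akap14 and Tekt4 being the 2 that were not among them. Tekt4, counted in the 4 of 9, passed the filter only through SB arrays, and such a gene has to differ. Akap14, the 1 of 9 others, would not have passed it through its VILI arrays alone.

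Dnali1, Dynlrb2, Rsph4a, Ccdc40 and Akap14 had all 6 VILI arrays below all 6 SB arrays, 5 of 32 against 4.09% of all genes. For Akap14 this order and its averaged call carry the limit on the filter given above. In each of the 12 fits with 1 array left out, Tekt4 kept its averaged call, but only SB arrays carried Tekt4 through the filter. Akap14, Ccdc40, Dnali1, Dynlrb2, Foxj1, Rfx3 and Rsph4a also kept their averaged call in each of the 12. Ccdc113, Dnah5 and Enkur lost it without wild type SB replicate 2 or 3, wild type VILI replicate 1 or 2, or knockout SB replicate 1. Their highest adjusted p, without wild type VILI replicate 2, was 0.0798, 0.0748 and 0.0668. Ccdc113 and Dnah5 also lost it without knockout VILI replicate 2, and Dnah5 without knockout VILI replicate 3. With both knockout replicates 3 left out, 12 genes were called in the averaged comparison, 6 in wild type and 1 in the knockout. Over all genes that setting gave 1631, 653 and 110 calls, against 1958, 290 and 491 with all arrays.

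Counted by arrays, every VILI array lay below every SB array of its genotype for 16 of 32 genes in wild type, against 20% of all genes, and for 7 in the knockout, against 10.6%. The 7, which also made up the count in both genotypes at once (6.19% of all genes), were Dnali1, Dynlrb2, Rsph4a, Ccdc40, Ccdc113, Enkur and Akap14, the last with the limit on the filter given above. No measured gene of the list showed the opposite order in either genotype. Over all 10996 genes, 1278 showed it in wild type and 1422 in the knockout. Some lists taken up below had larger shares of genes with all VILI arrays lower. In wild type the share was 71.4% for intraflagellar transport genes and endothelial markers and 64.3% for club cell markers. It was 0% for neutrophil and B cell markers. In both genotypes at once it was 35.7% for club cell and endothelial markers, against 21.9% for the motile cilia genes.

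The genotypes were then compared within each treatment, to see whether loss of Gadd45a went with another level of these genes. Under SB the knockout mean was below the wild type mean for 32 of 32 genes, the differences running from -0.79 (Stk33) to -0.038 (Rfx3) with a median of -0.42, against -0.061 over all genes, of which 62.2% were below 0. Limma called 0 of 32 (0.109% of all genes, 12 in number), and unadjusted p was under 0.05 for 15 of the 32, against 10.1% of all genes. The lowest adjusted p of the list was 0.310, for Rsph1, a radial spoke protein at 8.92, 9.17 and 8.99 in wild type and at 8.63, 8.58 and 8.52 in the knockout. These Rsph1 arrays did not overlap, and the difference was -0.45 (SE 0.13, 95% confidence interval -0.74 to -0.17). Every knockout array lay below every wild type array for 14 of 32 genes, against 11.5% of all genes. The 14 included Dnah5, Dnah9, Dnah11 and Dynlrb2 among the dynein genes, and Rsph1, Rsph9 and Spag16 among the spoke and central pair genes.

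This difference under SB uses the same wild type SB arrays as the VILI change in wild type. Within that group replicate 1 was the lowest for 26 of 32 genes and replicate 2 the highest for 20, and the mean of the 32 genes was 7.34, 7.79 and 7.65 on the 3 arrays. The knockout SB arrays, at 7.28, 7.18 and 7.15, lay below all 3, and closest to replicate 1. Leaving out 1 array at a time kept the median difference between -0.54 and -0.31 and at least 30 of 32 differences below 0, with 0 calls each time. Without both knockout replicates 3 the median was -0.32. Other lists also differed in their medians under SB. Of 28 intraflagellar transport genes 25 were below 0 (median -0.25), and of 21 BBSome and transition zone genes 19 were (-0.21). Of 14 club cell markers 12 were below 0 (-0.13), 5 of them without overlap. Type II epithelium and endothelial markers had medians of 0.011 and 0.042. The 12 smooth muscle and fibroblast markers had a median difference of -0.49, with 10 below 0, 8 at unadjusted p under 0.05 and 6 without overlap, and their mean ran from 11.61 to 11.94 on the wild type SB arrays and from 11.20 to 11.47 on the knockout SB arrays. The 7 measured B cell markers had a median of 1.08, and 0 were below 0. Limma called 0 genes of any of these lists, with 0 B cell markers at unadjusted p under 0.05. The part of these lists in the difference of the motile cilia genes was not tested.

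After VILI the knockout mean was lower for 18 of 32 genes, with a median difference of -0.018 (-0.0097 over all genes), and the median ran from -0.13 to 0.10 when 1 array was left out. Limma called 0 of 32 (0.1% of all genes), and unadjusted p was under 0.05 for 2 of the 32, Akap14 and Ccdc40, against 6.88% of all genes. The difference of Akap14 was -1.16 (SE 0.29, adjusted p = 0.296). Every knockout array lay below every wild type array for 2 of 32 genes, Akap14 and Rfx2, against 8.13% of all genes. The opposite order held for 1, Foxj1, against 6.64% of all genes, at a difference of 0.61 (SE 0.37, interval -0.21 to 1.44, adjusted p = 0.763).

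**Figure D4:**
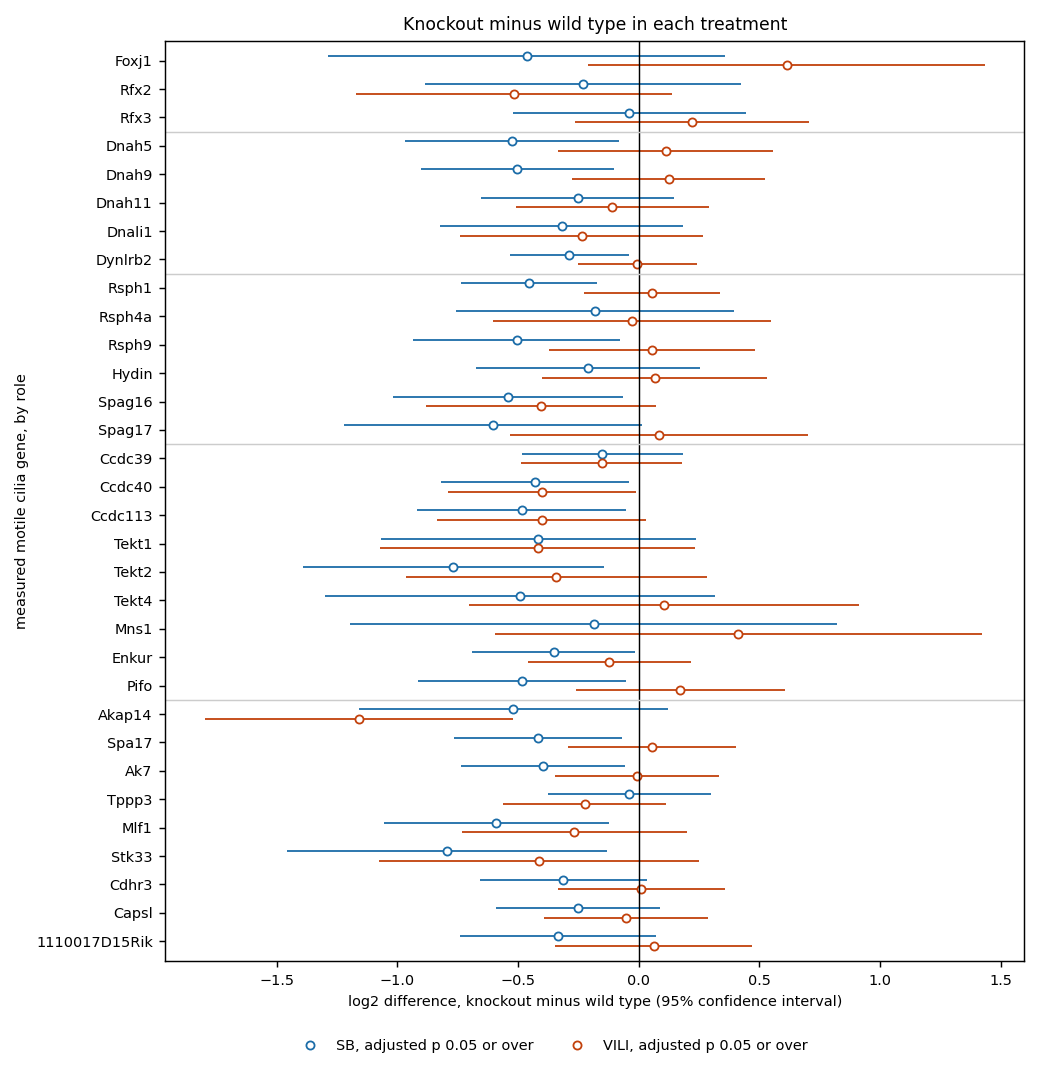
Log2 difference, knockout minus wild type, for the 32 measured motile cilia genes under SB (blue) and after VILI (orange), with 95% confidence intervals; no point has an adjusted p under 0.05. The SB points all lie left of 0, from -0.79 to -0.038, and the VILI points lie on both sides, from -1.16 to 0.61.

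Whether the response to VILI differed with the genotype was tested as the interaction, the change in the knockout minus that in wild type. Limma called 0 of 32 genes (0% of all genes), each with an adjusted p of 1, and unadjusted p was under 0.05 for 4 of the 32, Rsph1, Dnah9, Dnah5 and Pifo, against 2.62% of all genes. The interaction was above 0 for 27 of 32 genes, where the wild type change was the more negative one, against 6657 of all 10996 genes. Its median was 0.30, against 0.058 over all genes. It rests on the same wild type SB arrays, which had the highest group mean for all 32 genes. Foxj1 had the largest, 1.08 (SE 0.53, interval -0.085 to 2.24). Akap14 ran the other way, at -0.64 (SE 0.41, interval -1.54 to 0.26). The 95% intervals of 28 of the 32 genes included 0, and those of the 4 named first did not, the one of Rsph1 running from 0.11 to 0.91 around 0.51.

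Genes of the same structures outside the list followed it in part. Of 78 other motile axoneme and assembly genes, 48 were measured, and 6 were called lower in wild type, 2 in the knockout and 15 on average, with 0 higher in each. Their median changes were -0.51, -0.10 and -0.28. The shares called lower were 12.5%, 4.17% and 31.25%, against 1.28%, 1.7% and 9.39% of all genes. Under SB 46 of the 48 had a lower mean in the knockout than in wild type, with a median of -0.31. Limma called 0 of them, and 19 had an unadjusted p under 0.05, against 10.1% of all genes. Dnah1, an inner arm heavy chain, fell by 1.12 in wild type (adjusted p = 0.0206), Cfap70 by 0.90, Ttc29 by 0.89 and Dnah6 by 0.80. Wdr78, an inner arm intermediate chain, fell by 1.18 and Dnaaf1, a dynein assembly factor, by 1.02 in the knockout, and both fell on average, by 1.07 and 0.97.

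Intraflagellar transport, the traffic along the axoneme that builds all cilia, had 28 measured genes. Of these, 4 were called lower in wild type (Ttc30b, Traf3ip1, Ift81 and Ift46, by 0.70 to 0.59), 3 in the knockout (Wdr19, Hspb11 and Ift46) and 9 on average, with medians of -0.45, -0.25 and -0.34. The BBSome and transition zone list, of the gate at the base of the cilium, had 1 of 21 lower in wild type (B9d1, -0.85), 1 in the knockout (Cc2d2a, -0.92) and 5 on average, with medians of -0.21, -0.12 and -0.17. Called lower were 14.3%, 10.7% and 32.1% of intraflagellar transport genes and 4.76%, 4.76% and 23.8% of the BBSome list. Over all genes these shares were 1.28%, 1.7% and 9.39%. Of the program that makes multiciliated cells, 16 of 27 genes were measured and the calls went both ways. Calls in either direction were 2, 1 and 4 of the 16, against 2.64%, 4.47% and 17.8% of all genes. On average Myb, a transcription factor of that program, fell by 1.02 and Ccp110, a centriole cap protein, by 0.71, while Ezr, a membrane linker, rose by 0.58 and Plk4, a centriole kinase, by 0.58. In wild type Ccp110 fell by 0.86 and Ezr rose by 0.53, and in the knockout Ezr rose by 0.64.

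Markers of other cell types were followed beside these, and the shares of all genes called on average were 9.39% lower and 8.42% higher. Of 13 neutrophil markers 11 were measured, and their mean ran from 6.13 to 7.20 on the SB arrays and from 9.07 to 10.79 on the VILI arrays. All 11 rose on average. Club cells share the airway lining with ciliated cells, and 14 of 15 of their markers were measured, with means from 12.59 to 12.94 under SB and from 12.07 to 12.66 after VILI. Of these, 0 were called in wild type by limma, where 7 had an unadjusted p under 0.05, 2 were lower in the knockout and 5 were lower on average, with a median change of -0.22. Scgb1a1, the main club cell secretory protein, fell by 0.20 on average and Cyp2f2, a cytochrome P450, by 0.35. On average 8 of 14 endothelial markers fell, with a median of -0.47, as did 3 of 11 type II epithelium markers (-0.17), 3 of 12 type I epithelium markers (-0.21) and 3 of 12 smooth muscle and fibroblast markers (-0.26). The counts of measured markers were 7 of 12 for B cells and 6 of 12 for basal and secretory airway cells, with 0 calls by limma on average (0 at unadjusted p under 0.05 in both). The part of these cell types in the lower level of the motile cilia genes was not tested.

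**Figure D5:**
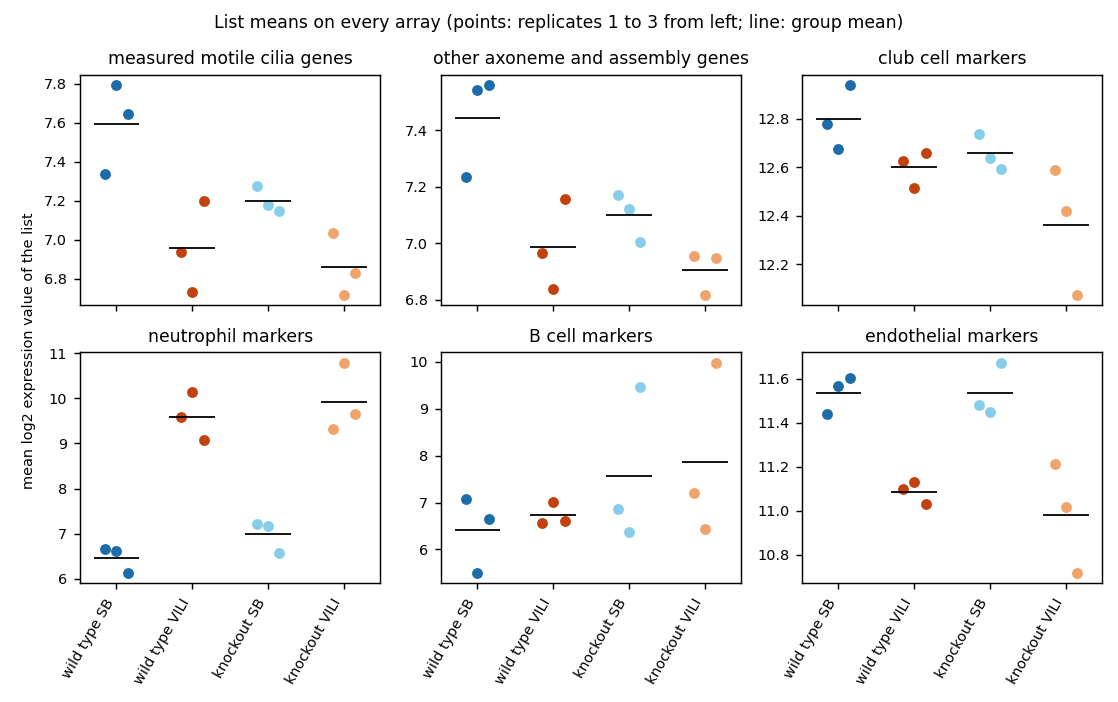
Mean log2 expression value of each list on each of the 12 arrays, by group, with points for replicates 1 to 3 from the left and a line at the group mean; axes differ between panels and do not start at 0. The neutrophil means sit between 6.13 and 7.20 on SB arrays and between 9.07 and 10.79 on VILI arrays, and the 2 highest B cell points, 9.47 and 9.98, are knockout replicates 3.

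Within groups the measured genes also went up and down together. Wild type VILI replicate 2 was the lowest of its group for 28 of 32 genes and replicate 3 the highest for 27. Knockout SB replicate 3 was the lowest for 22, and the 6 for which it was the highest were Foxj1, Rfx2, Rfx3, Spag17, Ccdc40 and Mns1. Knockout VILI replicate 1 was the highest for 25 and replicate 2 the lowest for 18. Likeness over all 12 arrays, differences between groups included, was described by correlation with the mean of the 32 genes, each centred and scaled over the arrays. Pearson's r with that mean, of which each gene is a part, ran from 0.545 to 0.958 with a median of 0.849. The dynein genes had the highest median by role, 0.925, and the regulators the lowest, 0.580. The 12 arrays share the treatment groups, so these values describe the groups and the arrays alike.

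Among genes that were no members, the 5 most like that mean over the 12 arrays were Bckdk (r = 0.967), Spaca9 (0.967), Spag6l (0.963), Ccdc181 (0.956) and Tbc1d24 (0.955). They were picked by likeness over the same arrays, so lower values after VILI were part of the choice. Their changes are a description only. In wild type the changes lay between -0.83 (Spag6l) and -0.47 (Tbc1d24). Bckdk, Spaca9 and Ccdc181 passed on average, at -0.37, -0.41 and -0.54. The median r was 0.777 over the 48 other axoneme and assembly genes, 0.664 over intraflagellar transport, 0.630 over club cell markers and -0.799 over neutrophil markers.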

How the data were processed

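The deposited values are log2 expression values that the authors had already normalized. MAS5 and GCRMA are named in the submitters' processing notes, with no role, order or version. The members and lists were chosen with earlier results of these data known. Leaving out 64 control probe sets, those above the median of 3 or more of the 12 arrays were used (23082 of 45037). Among those annotated to a single symbol, the probe set of highest mean stood for its gene. Limma 3.58.1 in R 4.3.3 fitted 1 mean per group to all 12 arrays with a mean-variance trend, and p-values were two-sided and adjusted over 10996 genes by Benjamini-Hochberg. The design text gives 3 mice a group, so arrays count as animals.

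Genes with values on every array are those past 0.05 in any of 6 comparisons, plus Foxj1, Rfx2 and Rfx3; others are given by range. From other cilia lists up to 4 called genes a direction are named. The labels number replicates 1 to 3 in every group and do not say that the numbers pair mice. Deviations of same-numbered SB arrays correlated between genotypes at 0.23, 0.53 and 0.32, all over 0.1. No other pair of groups had all 3 over 0.1, the knockout SB and VILI arrays giving 0.05, 0.21 and 0.43. Whether the numbers stand for a pairing was not tested. Alternatives were other normalizations, filters and probe set rules, no trend, fewer arrays and a replicate block. The model was checked on simulated data.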

Additional observations from a re-analysis of the deposited data

How the results depend on the processing

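Under the alternatives run, no motile cilia gene was called for knockout against wild type, in SB or after VILI, or for the interaction, and the count on average over genotypes stayed within 8 to 16. In wild type the count of 4 became 1 without a filter on low values and 7 with the replicate number as a block. It ran from 0 to 6 when 1 array was left out. Over all genes the wild type count of 290 became 112 and 442, and ran from 19 to 487. In the knockout the count of 1 became 2 with quantile normalization, 2 without a mean-variance trend and 0 with only the arrays compared. It ran from 1 to 5 when 1 array was left out. Over all genes the knockout count of 491 became 529, 449 and 11, and ran from 69 to 713. The change of Rfx2 in wild type ran from -0.44 to 0.032 when 1 array was left out, turning above 0 without wild type SB replicate 2, and in the knockout it was 0.017 with both knockout replicates 3 left out, an alternative chosen after seeing the data. The causes were not tested, beyond the smaller number of arrays where arrays were left out. The replicate block changed the count past 1.5 times only in wild type, where deviations of same-numbered arrays correlated at -0.01, -0.04 and 0.06. Among the 6 SB arrays alone, with the block and chosen after seeing the data, 0 measured genes of the list were called, as without it.

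The split of all called genes moved with scaling: on average 926 were higher and 1032 lower, 806 and 1389 after quantile normalization and 664 and 1152 with arrays centred on their medians, and the 11, 13 and 11 called motile cilia genes were all lower. In wild type the same 3 settings gave 149 higher and 141 lower, 135 and 198, and 106 and 134. In the knockout they gave 304 and 187, 271 and 258, and 200 and 185. Called motile cilia genes were lower in each of these too. Tekt4 after VILI in both genotypes, and Akap14 and Stk33 after VILI in the knockout, had means below the array medians and are limited by signal over background.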
